A study of Mus musculus with 6 samples.

Results

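The genes of the renin-angiotensin-aldosterone system form the pathway through which the infused peptide of this study acts. The 9 genes described here were chosen by gene name from the 46012 genes of the deposited tables. They are the angiotensin receptors Agtr1a, Agtr1b and Agtr2, the receptor Mas1, the precursor Agt, the converting enzyme Ace, the mineralocorticoid receptor Nr3c2, the receptor-associated protein Agtrap and the (pro)renin receptor Atp6ap2. The choice went by name, with no threshold on a level or ratio.

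In this system the protease renin cuts angiotensinogen, the product of Agt, to angiotensin I, and ACE converts that peptide to angiotensin II (AngII). AngII acts mainly on the type 1 (AT1) receptor, which in mice is encoded by the paralogous genes Agtr1a and Agtr1b, and it also binds the type 2 receptor, encoded by Agtr2. Mas1 encodes a receptor for the cleaved peptide angiotensin-(1-7), and aldosterone acts on the nuclear receptor encoded by Nr3c2. In the heart, AngII is known to drive cardiomyocyte growth and fibrosis, and circulating angiotensinogen comes mostly from the liver.

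RNA immune-precipitation with sequencing (RIP-seq) was carried out on the left ventricle of male mice aged 10 weeks, in a Sham group and in groups infused with AngII for 4 h or 24 h. AngII was delivered subcutaneously by osmotic minipump at 1 mg/kg/min, as labelled, and Sham mice, labelled untreated, received saline according to the protocol. Lysates of each group were incubated with an antibody to EZH2, the H3K27 methyltransferase of the Polycomb repressive complex, or with normal IgG, which measures background precipitation. The strain is labelled C57BL/6 for 4 libraries, C57BL/7 for the AngII 4 h anti-EZH2 library and C57BL/8 for the AngII 24 h anti-EZH2 library. Each group held 2 mice, and each library was made from a mix of 2 RIP products, so that every combination of group and antibody had 1 library and no replicate.

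Levels are FPKM, fragment counts divided by transcript length and by library size, from the separate table of each library unless the series table is named. The depth inferred from the smallest steps of the FPKM was between 3804364 fragments (AngII 24 h IgG) and 7936382 fragments (AngII 4 h anti-EZH2). Mitochondrially encoded genes took between 6.73% (AngII 4 h anti-EZH2) and 31.3% (AngII 24 h anti-EZH2) of the FPKM, and at most 13.9% in the other libraries. The tissue label was checked against markers. The summed FPKM of 7 ventricular cardiomyocyte markers was between 5270 and 9330, and that of 4 atrial markers was 44.0 and 29.6 in the Sham libraries against 5.36 to 11.7 in the AngII libraries. The atrial marker Myl7 was 14.3 and 12.2 in the Sham libraries and at most 0.491 in the AngII libraries. Myl4 was 9.5 and 6.57 in Sham and at most 0.562 after AngII. Nppa differed less, with 20.2 and 10.8 in Sham and 5.14 to 10.6 after AngII, and Sln was at 0 in all libraries. In bulk tissue, fewer cells of a type and less RNA per cell cannot be told apart.

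Agtr1a and Agtr1b are near-copies in their coding sequences, which are shown first because their differences let a coding fragment be assigned to 1 gene. The untranslated parts of the transcripts were not compared. Their coding sequences of 1077 nt, without the stop codon, differed at 99 positions in the GENCODE M21 transcripts (GRCm38), which is 90.8% identity. The longest identical run was 66 nt. The stretch that holds it lies at chr13:30381008-30381113 on the plus strand in Agtr1a and at chr3:20316281-20316386 on the minus strand in Agtr1b. In the sequences below, written from 5′ to 3′ along the transcript, capitals mark the bases that differ between the genes.
Agtr1a, shared stretch: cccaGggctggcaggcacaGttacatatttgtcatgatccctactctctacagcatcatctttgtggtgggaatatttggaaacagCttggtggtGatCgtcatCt
Agtr1b, shared stretch: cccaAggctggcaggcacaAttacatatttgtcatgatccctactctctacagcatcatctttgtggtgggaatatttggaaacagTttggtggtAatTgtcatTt

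The most different window of 60 nt held 13 mismatches. It lies near the end of the coding sequence, at chr13:30381917-30381976 in Agtr1a and at chr3:20315418-20315477 in Agtr1b.
Agtr1a, divergent stretch: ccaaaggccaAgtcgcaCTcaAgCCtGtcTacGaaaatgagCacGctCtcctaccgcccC
Agtr1b, divergent stretch: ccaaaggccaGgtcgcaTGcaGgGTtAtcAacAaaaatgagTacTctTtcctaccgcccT

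Of the windows of 50 nt along the coding sequence, 3.21% were the same in both genes, and of the windows of 75 nt 0 of 1003 were the same. The read length is not given in the sources used here.

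Agtr1a (ENSMUSG00000049115, chr13:30336441-30382867, plus strand), the main AT1 receptor gene of the mouse heart and vessels, was the only one of the 9 genes above 1 FPKM in all 6 libraries. In the IgG libraries its level was 1.16 FPKM in Sham, 2.67 FPKM after AngII for 4 h and 5.16 FPKM after AngII for 24 h. In the anti-EZH2 libraries it was 1.41, 2.09 and 1.68 FPKM in the same order. The level in the AngII 24 h IgG library stood above the other 5, and both Sham libraries stood below the 4 AngII libraries. These values rest on few fragments, about 10, 28 and 39 with IgG and 16, 33 and 16 with anti-EZH2.

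Agtr1b (ENSMUSG00000054988, chr3:20314473-20367177, minus strand) and Agtr2 (ENSMUSG00000068122, chrX:21484544-21489164, plus strand) were listed at 0 in all 6 libraries. At the inferred depths, 0 fragments allow a level of up to 0.194 to 0.406 FPKM for Agtr1b and of up to 0.123 to 0.256 FPKM for Agtr2. These limits, taken as 3 fragments of each library on the longest transcript, cover counting error only and would be higher for a shorter transcript. All entries of the 9 genes had the status OK, and 0 of 60 values of 10 commonly expressed genes were at 0.

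Mas1 (ENSMUSG00000068037, chr17:12841079-12868143, minus strand) was listed at 0 in 5 libraries and at 0.19 FPKM in the AngII 24 h anti-EZH2 library, which is at most 2 fragments. The interval that the deposited table gives for that value was 0 to 2.54 FPKM. In the other 5 libraries 0 fragments on the longest transcript allow up to 0.172 to 0.359 FPKM.

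Agt (ENSMUSG00000031980, chr8:124556534-124569706, minus strand), the angiotensinogen gene, was 0, 0.225 and 0.31 FPKM in the Sham, AngII 4 h and AngII 24 h IgG libraries. In the anti-EZH2 libraries it was 0.208, 1.04 and 0 FPKM. The AngII 4 h anti-EZH2 library, with about 14 fragments, stood above the other 5, which held 0 or 2 fragments each. The 5 hepatocyte markers, given because the liver is the known main source of Agt, summed to 1.93 FPKM in that library, to 4.06 FPKM in the AngII 4 h IgG library and to between 0.0317 and 1.42 FPKM in the other 4. In the library where Agt was highest, Alb was 1.09, Ttr 0.493, Serpina1a 0.213 and Apob 0.127 FPKM, and Apoa1 was at 0. Ttr was above 0 only in that library. All the other markers were higher in the AngII 4 h IgG library, where Agt was 0.225 FPKM. There Alb was 2.17, Apoa1 0.685, Serpina1a 0.726 and Apob 0.482 FPKM. The part of liver RNA in the Agt values was not tested.

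Ace (ENSMUSG00000020681, chr11:105967945-105989964, plus strand), whose product makes AngII from angiotensin I, was 2.78, 3.58 and 3.35 FPKM in the Sham, AngII 4 h and AngII 24 h IgG libraries. With anti-EZH2 it was 2.48, 2.89 and 0.978 FPKM. The AngII 24 h anti-EZH2 library stood below the other 5, which lay within 1.5-fold of each other. Ace was the highest of the 9 genes in 4 of the 6 libraries, while Agtr1a was highest in the AngII 24 h IgG library and Agtrap in the AngII 24 h anti-EZH2 library.

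Nr3c2 (ENSMUSG00000031618, chr8:76899442-77245012, plus strand), the mineralocorticoid receptor gene, was 2.3, 0.64 and 0.571 FPKM in the Sham, AngII 4 h and AngII 24 h IgG libraries. In the anti-EZH2 libraries it was 1.71, 0.975 and 0.42 FPKM. Both Sham libraries stood above the 4 AngII libraries with either antibody. The deposited intervals were wide, for example 0.431 to 8.57 FPKM in the Sham IgG library and 0.115 to 2.96 FPKM in the AngII 24 h anti-EZH2 library.

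Agtrap (ENSMUSG00000029007, chr4:148077061-148088031, minus strand), whose product binds the AT1 receptor and promotes its internalization, was 1.89, 1.82 and 1.25 FPKM in the Sham, AngII 4 h and AngII 24 h IgG libraries. It was 0.555, 1.98 and 1.99 FPKM with anti-EZH2. The Sham anti-EZH2 library stood below the other 5.

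Atp6ap2 (ENSMUSG00000031007, chrX:12587801-12617049, plus strand), which encodes the (pro)renin receptor and an accessory subunit of the vacuolar ATPase, was 0.762, 1.9 and 1.6 FPKM in the Sham, AngII 4 h and AngII 24 h IgG libraries. In the anti-EZH2 libraries it was 0.992, 1.06 and 0.0985 FPKM. The last value rests on about 1 fragment and stood below the other 5 libraries, which held between 7 and 21 fragments.

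**Figure D1:**
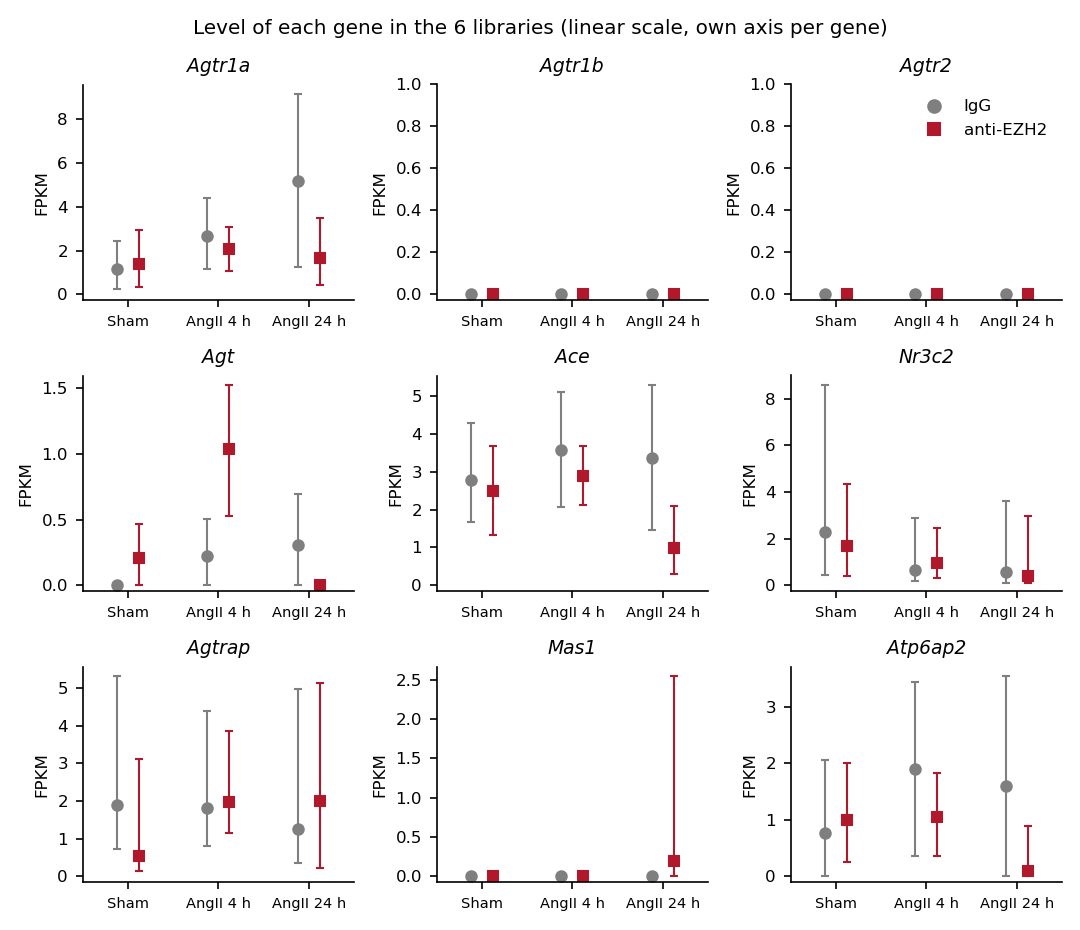
Level of each of the 9 genes in FPKM (vertical axis, linear, its own range for each gene) by group (Sham and AngII for 4 h or 24 h), with circles for IgG and squares for anti-EZH2 libraries and bars for the interval that the deposited tables give. Agtr1b and Agtr2 sit at 0 throughout, Agtr1a reaches 5.16 FPKM in the AngII 24 h IgG library, and Agt reaches 1.04 FPKM in the AngII 4 h anti-EZH2 library.

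Across the 9 genes, 5 were above 0 in all 6 libraries, beside 25.3% of all genes, and 2 were at 0 in all. In total 6 exceeded 1 FPKM in some library, and the highest value was 5.16 FPKM. Of all values in the tables, 5.92% were higher than that. When the genes above 0 were ordered by level within a library, all 29 pairs of neighbours had overlapping intervals, so that the order between neighbours did not exceed the error of single values.

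The association with EZH2 was addressed by the ratio of the anti-EZH2 to the IgG library of a group. The study's threshold was a ratio above 2 with values above 1.0. A gene was compared here when both libraries were above 0 and at least 1 was above 1 FPKM, and a ratio below 0.5 was counted as well. With 1 library on each side the ratios had no replicate check.

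In Sham, 4 of the 9 genes could be compared. The Agtr1a ratio was 1.21, and the exact 95% Clopper-Pearson interval for the ratio of fragments was 0.519 to 3.0. The ratios were 0.89 for Ace, 0.741 for Nr3c2 and 0.294 for Agtrap, and that of Agtrap was the 1 ratio past 2-fold. Atp6ap2, below 1 FPKM in both libraries, had a ratio of 1.3 (0.473 to 3.91). Among all 8755 genes compared, 14.4% had a ratio above 2 and 22.7% had a ratio below 0.5, so that 1 gene of 4 lies near this background. The median over the genes above 1 FPKM in both libraries was 0.842.

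After AngII for 4 h, 5 genes could be compared. Agt had the 1 ratio past 2-fold, 4.61 (1.06 to 41.9), from about 14 fragments against 2, and the deposited intervals of the 2 libraries did not overlap. The ratios were 0.785 for Agtr1a (0.456 to 1.34), 0.807 for Ace, 1.09 for Agtrap and 0.56 for Atp6ap2 (0.284 to 1.11). Nr3c2, below 1 FPKM in both libraries, had a ratio of 1.52. Over all genes 12.9% were above 2 and 14.3% were below 0.5, and the median was 0.936. In the series table Agt stayed under 1 FPKM in both libraries (0.379 against 0.0658), and its ratio there was 5.76. The Ace ratio there was 1.23, on the other side of 1.

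After AngII for 24 h, 4 genes could be compared and 3 had a ratio below 0.5. For each of these 3 genes the deposited intervals of the anti-EZH2 and the IgG library overlapped. The ratio was 0.325 for Agtr1a (0.171 to 0.599), 0.292 for Ace and 0.0614 for Atp6ap2 (0.00144 to 0.408), while that of Agtrap was 1.59 and that of Nr3c2, below 1 FPKM in both libraries, was 0.736. Low ratios were common among all genes in this group, where 35.8% were below 0.5 and 9.45% were above 2, and the median was 0.686. Of the genes compared, 18.7% had a lower ratio than Agtr1a, 16.0% a lower ratio than Ace and 1.55% a lower ratio than Atp6ap2. The anti-EZH2 library of this group is the one with 31.3% mitochondrial FPKM. With the mitochondrial genes left out of the scaling, the ratios were 0.407 for Agtr1a, 0.366 for Ace and 0.077 for Atp6ap2. The share of all genes past 2-fold was then 39.1%, against 45.2% before. The part of the library's composition in these ratios was not tested. In the series table, with a median of 1.06, the ratios were 0.554 for Agtr1a, 0.479 for Ace, 0.0735 for Atp6ap2 and 2.18 for Agtrap.

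**Figure D2:**
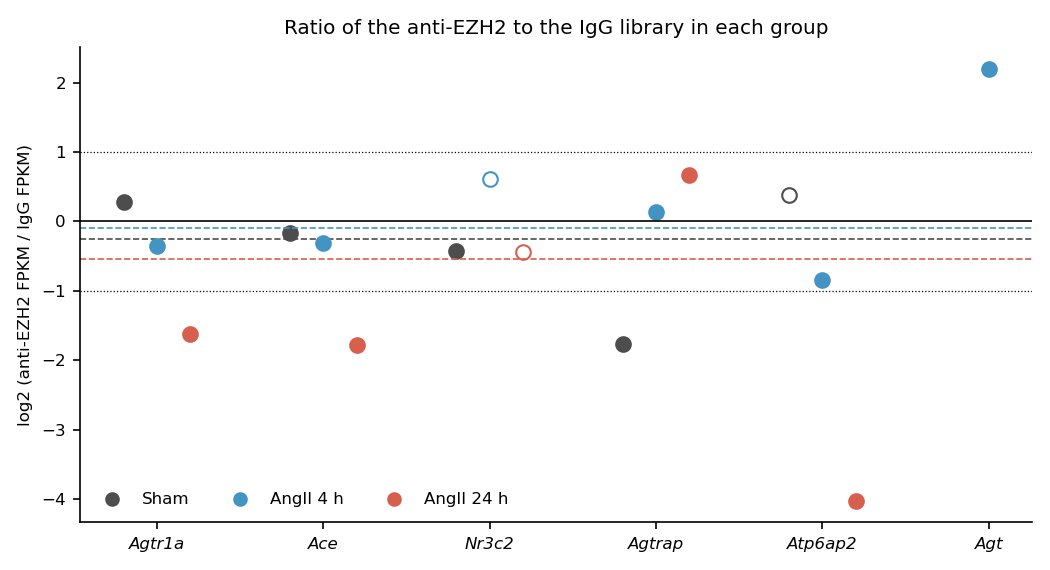
Log2 ratio of the anti-EZH2 to the IgG FPKM (vertical axis) for the 6 genes with a ratio, with 1 point for each group, open where both libraries are under 1 FPKM. Dashed lines show the median of all genes in the group's color and dotted lines show 2-fold. The AngII 24 h points of Agtr1a, Ace and Atp6ap2 lie below the lower 2-fold line, and 1 point, Agt after AngII for 4 h, lies above the upper line.

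The antibody effect was then tested over the 3 groups with limma on log2(FPKM + 0.1), with the group as a block. The 3 groups stood in for replicates, so the test covers an effect shared by Sham and both AngII times. Among 8269 genes 2 were called (0.0242%) and 606 had an unadjusted p under 0.05 (7.33%). Of the 9 genes, 4 passed the filter and 0 were called by limma, also at an unadjusted p under 0.05. On that log2 scale the difference of anti-EZH2 minus IgG was -0.55 (SE 0.477, limma adjusted p = 0.695) for Agtr1a and -0.71 (SE 0.441, limma adjusted p = 0.665) for Ace. It was -1.18 (SE 0.84, limma adjusted p = 0.668) for Atp6ap2 and -0.28 (SE 0.576, limma adjusted p = 0.849) for Agtrap. The median difference over all genes tested was -0.328. With the libraries centred on their median, the differences were -0.26 for Agtr1a, -0.43 for Ace, -0.90 for Atp6ap2 and -0.0012 for Agtrap. A difference between anti-EZH2 and IgG that all 3 groups share was therefore not detectable for these 4 genes, with SEs of up to 0.84 on the log2 scale.

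Levels after AngII were set against Sham for each antibody separately, since the IgG and the anti-EZH2 library of a group come from the same mice and are not independent. All libraries hold RNA from IgG or anti-EZH2 precipitates, and none holds total RNA. Changes of expression in the tissue were therefore not measured directly. In the IgG libraries Agtr1a was 2.31-fold its Sham level at 4 h (1.09 to 5.34) and 4.46-fold at 24 h (2.18 to 9.97). Atp6ap2 was 2.49-fold (1.02 to 6.91) and 2.1-fold (0.784 to 6.26) its Sham level. Nr3c2 was 0.278 and 0.248 of its Sham level. Ace (1.29 and 1.2) and Agtrap (0.962 and 0.664) stayed within 2-fold. So 3 of 5 genes compared were past 2-fold at either time, 2 above and 1 below, and both times share the Sham library. The deposited FPKM intervals overlapped for each of these genes at both times, so that 0 of 5 remained when the intervals had to be apart. Over all genes 19.6% were above 2 and 14.6% were below 0.5 at 4 h, and 22.9% and 12.9% at 24 h. In the series table Agtr1a was 1.74-fold and 3.1-fold its Sham level, while Atp6ap2 was 1.44-fold and 1.14-fold. There Ace was 0.765 of its Sham level at 4 h and 1.8-fold at 24 h.

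In the anti-EZH2 libraries Agtr1a was 1.49-fold its Sham level at 4 h (0.791 to 2.88) and 1.19-fold at 24 h (0.559 to 2.55), and both intervals include 1. Agtrap was 3.57-fold and 3.59-fold its Sham level, and Agt was 5.0-fold (1.15 to 45.5) at 4 h. Nr3c2 was 0.571 and 0.246 of its Sham level, and Ace was 1.16-fold and 0.395 of it. Of the genes compared, 2 of 6 were past 2-fold at 4 h and 3 of 4 were past 2-fold at 24 h, where Ace and Nr3c2 were below and Agtrap was above. The background was 23.4% above and 13.0% below at 4 h, and 15.9% above and 23.4% below at 24 h. Atp6ap2, below 1 FPKM in both libraries, was at 0.0993 of its Sham level at 24 h (0.00233 to 0.672). In the series table Ace was 0.877 and Nr3c2 was 0.388 of the Sham level at 24 h, Agtr1a was 0.892 of it at 4 h, and Agtrap was 2.59-fold and 5.19-fold.

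After the values were seen, the 4 AngII libraries were set against both Sham libraries without regard to the antibody. The IgG and the anti-EZH2 library of a group share their mice, so these libraries are not independent replicates. Agtr1a was above (1.68 to 5.16 FPKM against 1.16 and 1.41 FPKM), with a ratio of geometric means of 2.07. Nr3c2 was below (0.42 to 0.975 FPKM against 1.71 and 2.3 FPKM), with a ratio of 0.314. The other genes overlapped or had a library at 0. Over all 9600 genes compared, 11.4% were above and 4.74% were below in this way. The summed atrial markers also had both Sham libraries above the 4 AngII libraries, and their part in the values of Agtr1a and Nr3c2 was not tested.

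These orders depended on the libraries and the scaling. Without the AngII 24 h anti-EZH2 library, Ace and Atp6ap2 also stood above Sham and 4 of the genes compared were apart, beside a background of 24.3% above and 5.81% below. Agt, with 1 Sham library at 0 and so not compared, was above as well (0.225 to 1.04 FPKM against 0 and 0.208 FPKM). With each library scaled to its median gene, Agtr1a (1.92 to 4.4 against 1.16 and 1.76) and Nr3c2 (0.487 to 0.894 against 2.14 and 2.3) remained apart, beside 8.69% above and 10.2% below. In the series table Agtr1a overlapped (1.06 to 2.46 FPKM against 0.794 and 1.19 FPKM). There Nr3c2 was again below (0.298 to 0.439 FPKM against 0.767 and 0.919 FPKM) but never reached 1 FPKM, and the background was 10.9% above and 4.97% below.

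**Figure D3:**
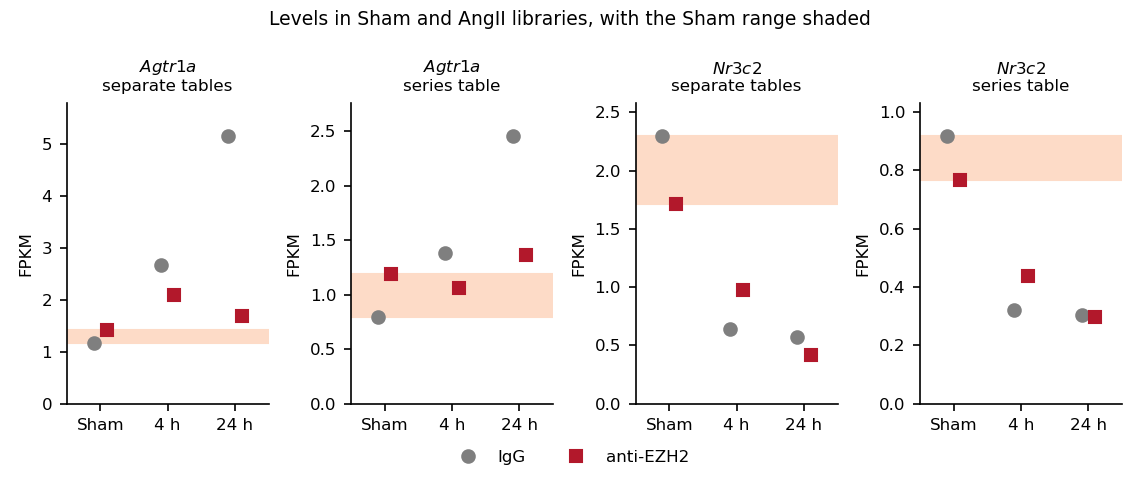
FPKM (vertical axis, linear from 0) of Agtr1a and Nr3c2 by group (Sham and AngII for 4 h or 24 h) in the separate tables and in the series table, with circles for IgG, squares for anti-EZH2 and the range of both Sham libraries shaded. Nr3c2 lies below the Sham range in the AngII libraries of both forms of table, while Agtr1a lies above it in the separate tables and overlaps it in the series table.

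The genes with the profile most like that of Agtr1a over the 6 libraries were looked up among 4830 genes above 1 FPKM in all of them. Dlg1, a scaffold protein gene, differed by a root mean square of 0.11 on the log2 scale after centring. Its levels were 2.06, 4.54 and 10.5 FPKM with IgG and 3.01, 4.04 and 3.03 FPKM with anti-EZH2. Ktn1 followed with 0.14 and Ubqln4 with 0.16, and the median over all genes was 0.70.

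The other genes of the pathway were described from 3 lists. Of 14 peptidases that make or break down angiotensin peptides, 13 had an entry, and Ren1, Cma1 and Ctsg, which encode renin, mast cell chymase and cathepsin G, were at 0 in all libraries. The highest peptidase gene was Ctsd, encoding cathepsin D, with 55.8, 54.9 and 46.6 FPKM in the IgG and 39.2, 52.0 and 28.3 FPKM in the anti-EZH2 libraries in the order Sham, 4 h and 24 h. Lnpep, the gene of the angiotensin IV-binding aminopeptidase, was between 3.21 and 5.79 FPKM. Prep, encoding prolyl endopeptidase, was between 0.829 and 2.08 FPKM, and Mme, encoding neprilysin, was between 0.478 and 1.68 FPKM.

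The anti-EZH2/IgG ratio of the peptidases was past 2-fold for Mme in Sham (0.42, 1 of 4 compared), for Thop1 after AngII for 4 h (6.54, 1 of 4 compared) and for 0 of 3 after AngII for 24 h. Over all genes, 22.7% were below 0.5 in Sham and 12.9% were above 2 after AngII for 4 h. The median ratios were 0.757, 1.15 and 0.704, beside 0.807, 0.929 and 0.638 for all genes compared. Thop1, encoding thimet oligopeptidase, was 2.36 FPKM in the AngII 4 h anti-EZH2 library and between 0.159 and 0.868 FPKM in the others, so that it was highest in the same library as Agt.

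Of 12 genes of aldosterone synthesis and mineralocorticoid receptor regulation, Cyp11b2, the aldosterone synthase gene, was at 0 in all libraries. Hsd11b2, whose product protects the receptor from glucocorticoids, was above 0 only in the AngII 4 h anti-EZH2 library (0.152 FPKM). Among genes that corticosteroids are known to induce, Tsc22d3 was between 9.2 and 18.7 FPKM and Sgk1 between 3.64 and 6.66 FPKM. Per1 was 2.24, 9.03 and 7.46 FPKM with IgG and 4.77, 6.6 and 1.92 FPKM with anti-EZH2. Fkbp5 was 1.82, 3.49 and 1.62 FPKM with IgG and 1.99, 8.03 and 0.658 FPKM with anti-EZH2. In the IgG libraries Per1 was the 1 gene of 5 compared past 2-fold against Sham, at 4.03-fold at 4 h and 3.33-fold at 24 h, beside 19.6% and 22.9% of all genes above 2. The median anti-EZH2/IgG ratios of the list were 0.833, 0.731 and 0.586, beside 0.807, 0.929 and 0.638 for all genes compared. Of 5 genes compared in each group, 1 was above 2 and 1 below 0.5 in Sham, 1 was above at 4 h and 2 were below at 24 h, where 35.8% of all genes were below.

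The list of AT1 receptor signalling held 21 names, with Adrbk1 and Grk2 both standing for the gene of GRK2. Of these names 20 had an entry, Adrbk1 being the one used for that gene. In all libraries 19 were above 0, and Mrgprd was at 0. Rhoa, a small GTPase gene, was between 10.1 and 22.3 FPKM. Rgs5, a regulator of G protein signalling expressed in pericytes, was between 9.99 and 17.3 FPKM. Gna12, a G protein subunit gene, was between 4.42 and 8.45 FPKM. Adrbk1, which encodes the G protein-coupled receptor kinase GRK2, was 1.68, 6.58 and 3.39 FPKM in the IgG and 6.64, 6.35 and 16.9 FPKM in the anti-EZH2 libraries. The anti-EZH2/IgG ratio was above 2 for 4 of 16 genes in Sham, 0 of 15 after AngII for 4 h and 2 of 16 after AngII for 24 h, beside 14.4%, 12.9% and 9.45% of all genes. It was below 0.5 for 3, 2 and 3 genes, beside 22.7%, 14.3% and 35.8%. The medians were 0.867, 0.735 and 0.702, beside 0.807, 0.929 and 0.638 for all genes compared. Adrbk1 (3.94, 0.965 and 4.98) and Plcb1 (4.51, 1.94 and 8.06), a phospholipase C gene downstream of the receptor, were above 2 in Sham and after AngII for 24 h. Plcb1 was 0.55, 0.308 and 0.287 FPKM with IgG and 2.48, 0.596 and 2.31 FPKM with anti-EZH2. Its ratios therefore divide by low IgG levels, and at 4 h both libraries were under 1 FPKM. Gnaq (0.361, 0.454 and 0.805), a G protein subunit gene, was below 0.5 in Sham and after AngII for 4 h. No gene of the 3 lists was past 2-fold in the same direction in all 3 groups.

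**Figure D4:**
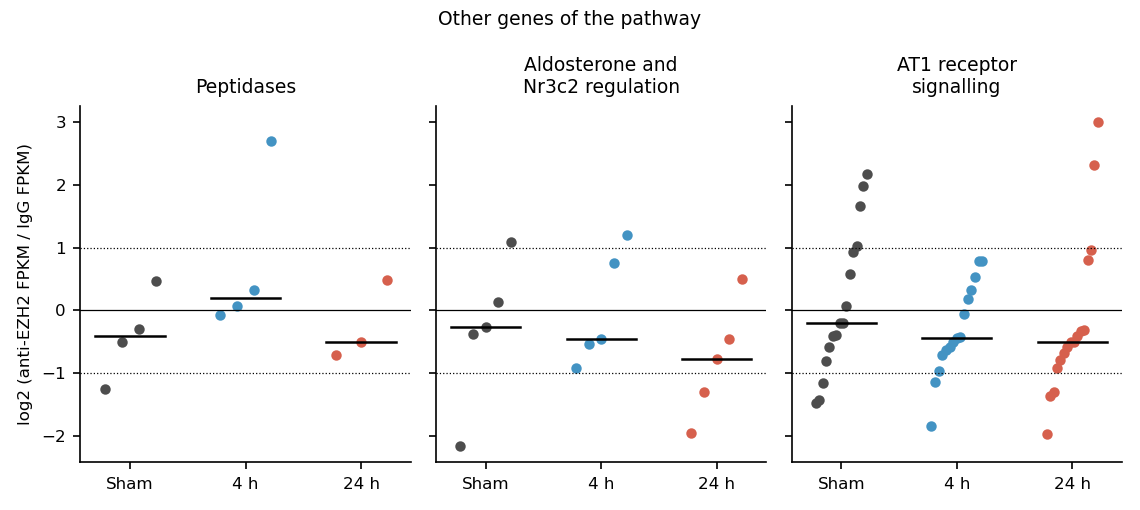
Log2 ratio of the anti-EZH2 to the IgG FPKM (vertical axis) for the genes of the 3 lists that were above 1 FPKM in at least 1 library of the pair, in Sham and after AngII for 4 h and 24 h, with 1 point for each gene, bars for medians and dotted lines at 2-fold. The medians of the AT1 receptor signalling list correspond to ratios of 0.867, 0.735 and 0.702.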

How the data were processed

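RIP-seq gave 6 libraries, 1 anti-EZH2 and 1 IgG for Sham and for each AngII time. Groups came from the labels. According to the study's methods, the authors prepared stranded libraries and mapped reads to the mouse genome (mm10, the assembly GRCm38) with TopHat2. The deposited FPKM came as 1 table for all libraries (the series table, 44135 genes with a unique name used) and as separate tables, 1 for each library, with an interval for each value. The software behind the FPKM and the annotation it used are not given in the sources used here. In the separate tables, 60 identifiers listed at several loci were left out. The coordinates of the 9 genes were the same as in GENCODE M21, 1-based.

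Ratios of FPKM were taken without a pseudocount where both libraries were above 0 and at least 1 was above 1.0, and called above 2 or below 0.5. Fragments were inferred from the steps of low FPKM with a fragment length model (mean 200 nt, SD 80 nt, shortest 34 nt) on 15531 genes with 1 transcript. Between 63.7% and 68.1% of low values were whole within 0.1 fragments, beside 20% by chance. This was too few for a test on counts. For Agtr1a, Agt and Atp6ap2 all 18 values came within 0.16 of a whole number of fragments, with the longest transcript as the length. Exact 95% Clopper-Pearson intervals for these ratios cover counting error only. For the other genes fragments are upper bounds.

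The paired test was limma 3.58.1 (R 4.3.3) on log2(FPKM + 0.1) with empirical Bayes moderation and trend, for genes above 1.0 FPKM in at least 3 libraries, with Benjamini-Hochberg adjustment and a threshold of 0.05. Procedures were tested on simulated data. Ratios were computed with pandas 2.3.3 and numpy 2.4.6 in Python 3.11.15, exact intervals with scipy 1.17.1, and figures with matplotlib 3.10.9.

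The genes named were the 9 genes, up to 4 genes of each list with the largest mean FPKM, list genes past 2-fold in the same direction in all 3 groups, and the 3 genes most like Agtr1a. Other list genes were named after their values were seen. The 9 genes and the lists were chosen with earlier results of these data known. For each count of ratios 9 alternatives were tried, with others for limma and for single ratios. The comparison of the 4 AngII with both Sham libraries and its alternatives were added after seeing the data. Of the columns of the series table, 0 were without a matching library.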

Additional observations from a re-analysis of the deposited data

Results flagged for a closer look

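For Atp6ap2, Agtrap and Agtr1a the anti-EZH2/IgG ratio lay past 2-fold in 1 group and on the other side of 1 in another. The share of all genes with this pattern was not computed, so it is not a result about these genes as a set. The difference between groups was not tested, since each ratio comes from 1 pair of libraries. For Atp6ap2 the ratio was 0.0614 after AngII for 24 h and 1.3 in Sham, a 21.2-fold difference that rests on about 1 fragment in the AngII 24 h anti-EZH2 library. Its Sham ratio came from libraries that were both below 1 FPKM and so was not among the ratios compared. For Agtrap the ratio was 0.294 in Sham and 1.59 after AngII for 24 h, a 5.41-fold difference. For Agtr1a the ratio was 0.325 after AngII for 24 h and 1.21 in Sham, a 3.72-fold difference. The exact intervals of the Atp6ap2 ratios, 0.00144 to 0.408 and 0.473 to 3.91, did not overlap. They cover counting error only, and the ratios set side by side were picked for lying far apart. The deposited FPKM intervals of Atp6ap2 after AngII for 24 h overlapped, at 0 to 0.9 with anti-EZH2 and 0 to 3.54 with IgG. The exact intervals of the Agtr1a ratios, 0.171 to 0.599 and 0.519 to 3.0, overlapped.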

How the results depend on the processing

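For the genes past 2-fold (anti-EZH2 against IgG 1 in Sham, 1 at 4 h and 3 at 24 h, AngII against Sham 3 and 3 with IgG and 2 and 3 with anti-EZH2), counts that moved by over 1.5-fold were as follows. In the series table they were 0 for anti-EZH2 against IgG at 4 h, 0 and 1 for AngII 4 h and 24 h in the IgG libraries and 0 for AngII 4 h in the anti-EZH2 libraries. With a pseudocount of 1 they were 0 in Sham and 0 at 4 h, 1 for AngII 4 h in the IgG libraries, and 0 and 0 for both times in the anti-EZH2 libraries. With both libraries above 1.0 FPKM they were 0, 0 and 1 for anti-EZH2 against IgG, and for AngII against Sham 1 and 1 with IgG and 0 and 0 with anti-EZH2. With intervals apart as well they were 0 in Sham and 0 at 24 h, and for AngII against Sham 0 and 0 with IgG and 1 and 0 with anti-EZH2. With a ratio past 1.5 the count at 4 h was 2. Genes called by limma numbered 0 in the series table, 0 with all 6 libraries above 1.0 FPKM, and 0 to 9 when 1 group was left out, 9 of them without Sham. The genes with the AngII libraries apart from Sham numbered 2, but 0 in the series table and 4 without the AngII 24 h anti-EZH2 library. In the series table Nr3c2 was again below Sham but never reached 1 FPKM, and so was not counted. The shares of all genes past the call ranged over the comparisons from 27.2% to 45.2% as reported, 23.8% to 56.4% in the series table, 17.7% to 31.2% with a pseudocount of 1, 15.3% to 31.2% with both libraries above 1.0 FPKM, 47.9% to 67.6% past 1.5 and 2.69% to 7.83% with intervals apart. Other counts stayed within 1.5-fold. Of 185 single ratios under alternatives, 26 changed by over 1.5-fold (13 with a pseudocount of 1, 11 in the series table and 2 with a pseudocount of 0.1), and 13 of the 185 left their exact 95% interval or, for genes without one, changed by over 1.5-fold. No called ratio changed direction. The causes were not tested. The main limits are the single library of each group and antibody, the few fragments behind each value and the differences between the forms of table. No paired analysis by replicate number was possible because each group had 1 library.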
